A study of Mus musculus with 9 samples.

Results

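The Hes and Hey Notch effectors are 7 genes taken by symbol: Hes1, Hes5, Hes6, Hey1, Hey2, Heyl and Nrarp. All 7 were found among the 34590 genes of the count files and all 7 passed the filter on low counts. They were followed in total RNA from mouse telencephalon, the part of the forebrain that forms the cortex and basal ganglia, at embryonic stage E12.5. The dKO group held 4 libraries from embryos lacking Lats1 and Lats2 through Nestin-Cre, on a strain background given as mixed lineage; the WT group held 5 libraries labelled wild type, of the same age and background, and the labels name no floxed allele or Cre for them. Lats1 and Lats2 are Hippo kinases, which hold back the coactivators YAP and TAZ. Nestin-Cre acts mainly in neural progenitors and the cells they produce. Whether vessels, meninges and blood in the same tissue keep both genes was not tested. The protocol calls the WT embryos controls and counts 5 of them and 4 dKO embryos, 1 per library, with no litters named.

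Notch receptors are cleaved when a neighbouring cell presents a Delta or Jagged ligand, and the freed intracellular domain joins the DNA-binding protein RBPJ to switch on Hes and Hey genes. Their products are basic helix-loop-helix repressors that recruit Groucho proteins and hold down proneural genes such as Neurog2. In the embryonic forebrain Hes1 and Hes5 keep radial glia, the neural stem cells of this stage, from becoming neurons, and loss of both in mice depletes progenitors early. Hes1 also answers to signals other than Notch and represses its own promoter.

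Values are given on 2 scales. The relative scale is CPM, a gene's count scaled to an equal library total, after TMM scaling, and sets a gene against the typical gene of its library. The second scale is counts per 100000 spike-in counts: synthetic ERCC RNAs went into pellets of counted cells, so it reads as RNA per cell as far as counting and pipetting were even across tubes. Libraries held 16566763 to 45803152 gene counts in dKO and 12906561 to 39263370 in WT. Gene counts per spike-in count were 79.1 ± 5.90 in dKO (SD, n = 4) and 58.1 ± 6.10 in WT (SD, n = 5), a 1.36-fold difference shared by every gene on the second scale (two-sided exact permutation p = 0.00794, the smallest that 9 libraries in these groups can give). Lats1 stood at 58.8 to 61.3 CPM in dKO and 124.7 to 136.4 CPM in WT, below WT in all 4 dKO libraries (log2 fold change -1.15, SE 0.04, edgeR adjusted p = 3.12e-08). Lats2 stood at 36.3 to 56.4 CPM in dKO and 20.2 to 32.4 CPM in WT; which exons were removed is not given in the sources used here, so this count does not check the label. WT 2, 3 and 4 had 39.3% to 41.3% of reads in no gene, against 32.0% to 35.6% in the other 6 libraries, so results are also given without them.

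RefSeq promoter windows of GRCm38.p6, from 250 bases before to 50 bases after the gene start, were at hand for 4 of the 7 genes. The 3 shown are those of genes that RBPJ is known to control, and the capitals mark every match to the RBPJ core TGGGAA on either strand.
Hes5: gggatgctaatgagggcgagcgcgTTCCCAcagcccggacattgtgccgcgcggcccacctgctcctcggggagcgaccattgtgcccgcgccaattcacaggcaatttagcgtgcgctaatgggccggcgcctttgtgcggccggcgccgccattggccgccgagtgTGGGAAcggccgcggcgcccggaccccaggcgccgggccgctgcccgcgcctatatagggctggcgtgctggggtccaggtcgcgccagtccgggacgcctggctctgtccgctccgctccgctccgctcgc
Hey2: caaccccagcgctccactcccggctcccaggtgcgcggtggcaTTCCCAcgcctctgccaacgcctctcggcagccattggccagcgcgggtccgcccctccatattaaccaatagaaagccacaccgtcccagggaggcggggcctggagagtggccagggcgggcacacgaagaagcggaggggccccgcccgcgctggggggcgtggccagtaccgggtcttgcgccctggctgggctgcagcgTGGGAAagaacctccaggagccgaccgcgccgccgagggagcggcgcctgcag
Nrarp: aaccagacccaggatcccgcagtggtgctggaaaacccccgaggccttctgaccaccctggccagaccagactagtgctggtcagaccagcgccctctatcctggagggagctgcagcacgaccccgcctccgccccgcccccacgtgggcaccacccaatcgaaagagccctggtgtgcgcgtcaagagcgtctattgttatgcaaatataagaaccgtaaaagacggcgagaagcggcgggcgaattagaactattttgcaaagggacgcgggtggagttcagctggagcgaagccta
The Hes5 window lies at chr4:154960673-154960972 on the plus strand, the Hey2 window at chr10:30842734-30843033 on the minus strand and the Nrarp window at chr2:25180508-25180807 on the plus strand. Hes5 held 2 RBPJ cores, whose first bases lie at -226 and -82 from the start, and Hey2 held 2, at -207 and -3. Nrarp and both Hes6 windows held 0. For comparison, 25.6% of all 32851 windows held at least 1 RBPJ core and 3.79% held 2 or more. The core of the TEAD factors that YAP and TAZ bind, GGAATG on either strand, was found once in Hey2, where it shares 4 bases with the RBPJ core at -207, and in 14.7% of all windows. The N-box CACNAG, a site of Hes repressors, had 2 matches in Nrarp, 2 in 1 of the Hes6 windows and 0 in Hes5 and Hey2, and was held by 42.5% of all windows. A match here is a run of letters and not a bound site.

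Hes1 rose in the dKO telencephalon while Hes5, its closest partner in radial glia, fell. Relative to the library, 5 of the 7 genes were called in edgeR (quasi-likelihood test, adjusted p under 0.05), 1 higher and 4 lower, where 25.7% of 17182 tested genes were called in either direction, 13.7% higher (2355 genes) and the rest lower (2067 genes). Hes5, Hes6, Hey1 and Nrarp were the lower ones, and Hey2 and Heyl did not pass. Per spike-in count only Hes1 was called higher and only Hes5 lower in edgeR, where 61.8% of genes were called in either direction, 61.1% higher and 0.698% lower. In RNA from whole tissue, fewer cells of a type and less RNA per cell cannot be told apart.

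Hes1 had 63.1, 53.1, 50.3 and 65.5 CPM in dKO libraries 1 to 4, against 37.8, 30.8, 29.1, 31.7 and 31.8 CPM in WT libraries 1 to 5. The groups did not overlap: the lowest dKO library lay above the highest WT library. Such separation was found at 22.3% of tested genes, with dKO above WT at 12.6%. The mean was 58.0 ± 7.41 CPM in dKO (SD, n = 4) and 32.2 ± 3.27 CPM in WT (SD, n = 5). The relative log2 fold change was 0.85 (SE 0.09, edgeR adjusted p = 0.000165), or 1.80-fold. Only 2.40% of tested genes had a higher relative fold change.

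Per spike-in count the rise of Hes1 was larger. It had 441, 448, 396 and 540 counts per 100000 spike-in counts in dKO 1 to 4, against 204, 153, 186, 193 and 199 in WT 1 to 5. Every dKO library was above every WT library here as well, a separation found at 48.6% of genes on this scale, with dKO above WT at 48.4%. The per-spike-in log2 fold change was 1.29 (SE 0.12, edgeR adjusted p = 3.99e-10), or 2.44-fold, against a median of 0.43 over all genes. Without WT 2, 3 and 4 Hes1 still passed, with a relative log2 fold change of 0.74 (edgeR adjusted p = 0.0211).

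Hes5, the Hes gene that depends most directly on Notch in the developing brain, went the other way and varied most of the 7 among dKO libraries. It had 23.4, 45.4, 32.6 and 15.9 CPM in dKO 1 to 4, against 78.1, 53.5, 51.7, 55.7 and 64.1 CPM in WT 1 to 5. The highest dKO library, dKO 2, lay below the lowest WT library, so the groups did not overlap, and dKO 4 was the lowest of all 9. Separation with dKO below WT was found at 9.74% of tested genes.

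The Hes5 mean was 29.3 ± 12.7 CPM in dKO (SD, n = 4) and 60.6 ± 10.9 CPM in WT (SD, n = 5). The relative log2 fold change was -1.03 (SE 0.24, edgeR adjusted p = 0.00964). Only 0.675% of tested genes had a lower relative fold change. Without WT 2, 3 and 4 the relative value was -1.26 (SE 0.32) and did not pass (edgeR adjusted p = 0.0658). In that fit, which holds only WT 1 and WT 5 on the WT side, 3.46% of genes were called. WT 1 and WT 5 were also the WT libraries with the most Hes5, at 78.1 and 64.1 CPM.

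Per spike-in count Hes5 had 164, 383, 257 and 131 counts per 100000 spike-in counts in dKO 1 to 4, against 423, 266, 329, 340 and 400 in WT 1 to 5. The groups overlapped on this scale, since dKO 2 lay above WT 2, 3 and 4. The per-spike-in log2 fold change was -0.59 (SE 0.19, edgeR adjusted p = 0.00755), and DESeq2 did not call it (-0.59, adjusted p = 0.112). Single dKO libraries moved its size: it was -0.93 without dKO 2 and -0.40 without dKO 4, and passed in both cases. Without WT 2, 3 and 4 it was -0.81 and passed (edgeR adjusted p = 0.00226), in a fit that called 49.4% of genes.

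**Figure D1:**
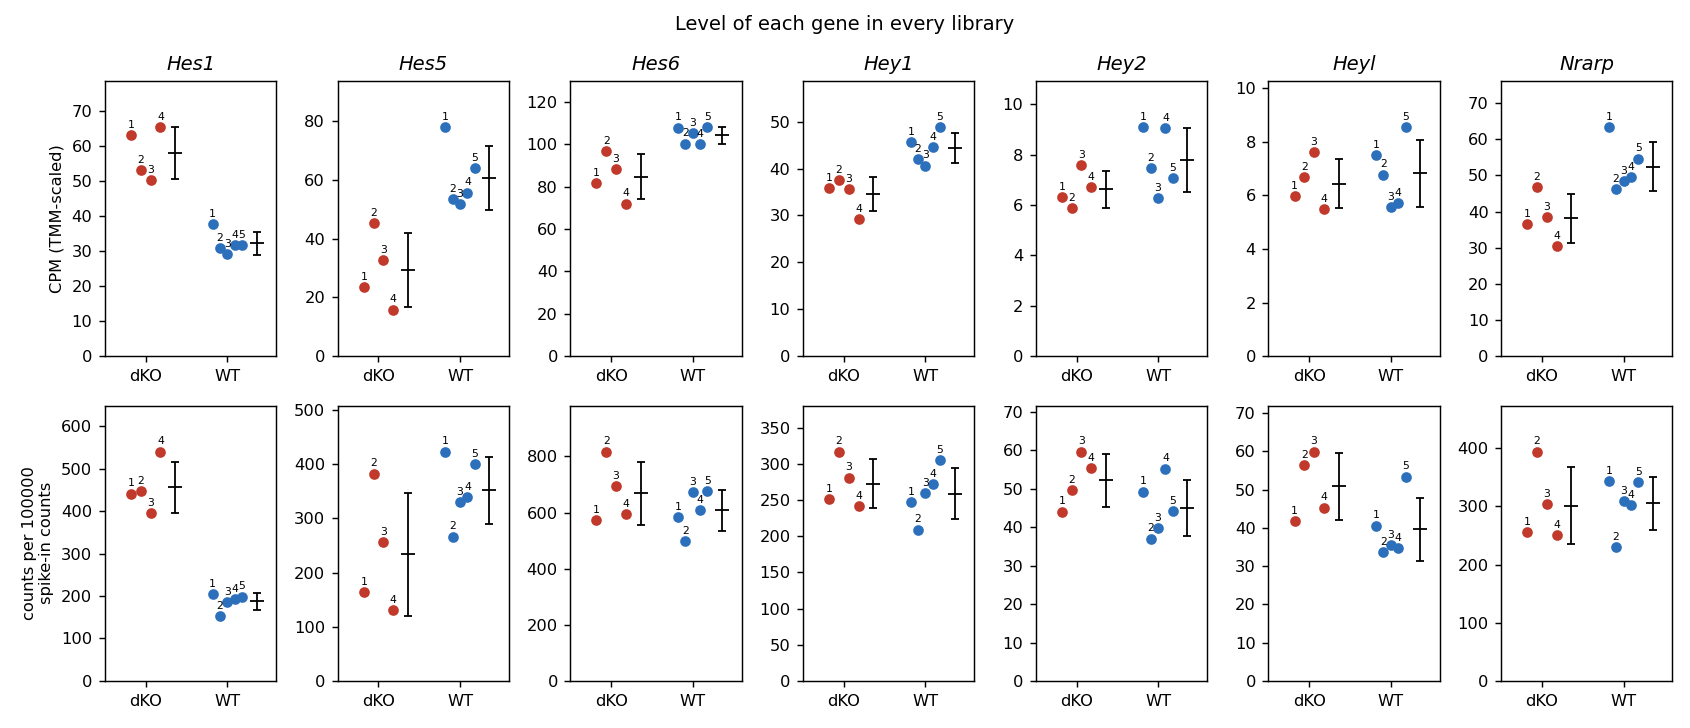
Level of each of the 7 genes in every library, as TMM-scaled CPM (upper row) and as counts per 100000 spike-in counts (lower row), with dKO left of WT; points are libraries with their replicate number, and the bar beside them is the mean with its SD (n = 4 dKO, n = 5 WT). Hes1 is higher in all dKO libraries in both rows, and Hes5 runs from 15.9 to 45.4 CPM in dKO against 51.7 to 78.1 CPM in WT.

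The ratio of Hes1 to Hes5 counts needs no scaling of the library, since both come from the same counts. It was 2.70, 1.17, 1.54 and 4.13 in dKO 1 to 4, against 0.483, 0.576, 0.563, 0.569 and 0.496 in WT 1 to 5. Hes1 counts exceeded Hes5 counts in every dKO library and in no WT library. On the log2 scale the ratio averaged 1.08 ± 0.81 in dKO (SD, n = 4) and -0.90 ± 0.12 in WT (SD, n = 5), a difference of 1.98. The pair was chosen with this opposite movement known, so the ratio is a description without a test.

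The dKO libraries differed more among themselves in this ratio than the WT libraries, and Hes5 varied more than Hes1 among them. The highest dKO value of Hes5 was 2.86 times the lowest, against 1.51 times in WT; the same figures for Hes1 were 1.30 and 1.30. The median gene of at least 5 CPM had a highest over lowest value of 1.16 among dKO libraries, and 0.548% of such genes spread more there than Hes5. Lats1, the deleted kinase gene, spread by 1.04 times among the same dKO libraries. The dKO libraries with the least Hes5, dKO 4 and dKO 1, also had the most Hes1 in CPM. The 13 genes marking cortical hem and choroid plexus summed to 303, 410, 431 and 329 CPM in dKO 1 to 4, so their order over dKO libraries also put dKO 1 and dKO 4 lowest. The 8 markers of diencephalon and eye summed to 79.2, 100.8, 94.6 and 58.2 CPM in the same order. Red cell markers (2760, 3688, 3414 and 2191 CPM) and endothelial markers (295, 302, 350 and 267 CPM) also put dKO 1 and dKO 4 lowest. The summed telencephalic progenitor markers put these libraries highest (3586, 3321, 3278 and 3701 CPM). That order followed Vim, the largest part of the sum, at 1744, 1473, 1505 and 2033 CPM. Nes (1222, 1234, 1184 and 1072 CPM) and Emx2 (28.4, 37.3, 32.9 and 27.5 CPM) were lowest in dKO 4, and the remaining markers of this list shared no order. Microglia markers (89.1, 88.8, 89.1 and 105 CPM) were highest in dKO 4, with the other dKO libraries close together. The pericyte and surface ectoderm lists showed neither order. In WT the hem and choroid plexus sum was lowest in WT 5, at 255 CPM, though WT 5 had more Hes5 than WT 2, 3 and 4. The part of any of these lists in the Hes5 spread was not tested.

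**Figure D2:**
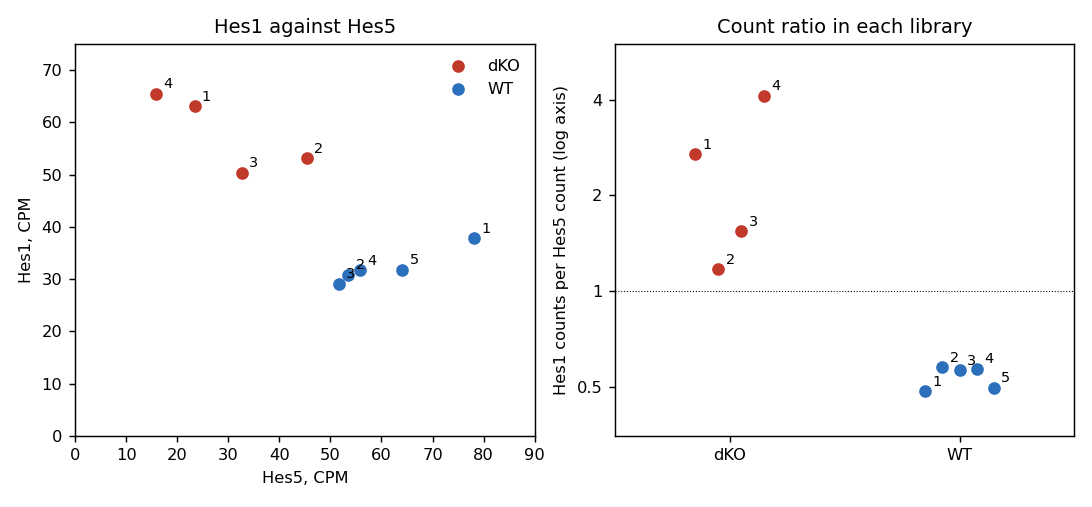
Left, Hes1 against Hes5 in CPM for each library, numbered by replicate. Right, Hes1 counts per Hes5 count on a log axis, dKO left of WT. The dKO libraries lie between 1.17 and 4.13 and the WT libraries between 0.483 and 0.576.

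Hes6 is a divergent family member that antagonizes Hes1 and favours neuronal differentiation. It had 81.7, 96.9, 88.2 and 72.0 CPM in dKO 1 to 4, against 107.8, 100.3, 105.4, 100.0 and 108.2 CPM in WT 1 to 5. All dKO libraries were below all WT libraries, with dKO 2 close to them. The relative log2 fold change was -0.30 (SE 0.07, edgeR adjusted p = 0.0104). Per spike-in count the ranges overlapped, at 572 to 817 in dKO and 499 to 675 counts per 100000 spike-in counts in WT, with a log2 fold change of 0.14 (SE 0.11) that did not pass.

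Hey1, which maintains neural precursors and also acts in vessels, was the Hey gene with the most RNA. It had 35.8, 37.6, 35.7 and 29.3 CPM in dKO 1 to 4, against 45.6, 42.0, 40.7, 44.6 and 48.9 CPM in WT 1 to 5. These ranges did not overlap, and the relative log2 fold change was -0.35 (SE 0.08, edgeR adjusted p = 0.00740). Per spike-in count its value was 0.08 (SE 0.13) and did not pass. Hey2, known for its part in arteries and heart, had 5.89 to 7.59 CPM in dKO and 6.26 to 9.10 CPM in WT. Heyl, which marks smooth muscle of vessels besides neural cells, had 5.49 to 7.62 CPM in dKO and 5.57 to 8.56 CPM in WT. Both overlapped between the groups. Their relative log2 fold changes of -0.22 (SE 0.13) and -0.07 (SE 0.15) did not pass, nor did the per-spike-in values of 0.21 (SE 0.17) and 0.36 (SE 0.17). With 90 to 334 counts per library for these 2 genes, their SEs were the widest of the 7 after that of Hes5 on both scales.

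Nrarp, an ankyrin-repeat protein induced by Notch that limits the activity of the cleaved receptor, followed Hes5 in direction on the relative scale. It had 36.6, 46.7, 38.6 and 30.5 CPM in dKO 1 to 4, against 63.5, 46.3, 48.4, 49.6 and 54.7 CPM in WT 1 to 5. The groups overlapped, since dKO 2 lay just above WT 2. The relative log2 fold change was -0.45 (SE 0.12, edgeR adjusted p = 0.0169), which did not pass without dKO 1 (-0.43, adjusted p = 0.0510). Per spike-in count its log2 fold change was -0.02 (SE 0.14), with 251.0 to 394 counts per 100000 spike-in counts in dKO and 230 to 344 in WT.

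Hes6, Hey1 and Nrarp, which fell relative to the library, had per-spike-in log2 fold changes of 0.14, 0.08 and -0.02 that did not pass, below the median of 0.43 over all genes. Without WT 2, 3 and 4 none of the 4 relative falls passed in edgeR, though all 4 kept an unadjusted p under 0.05 and their log2 fold changes were -1.26 for Hes5, -0.35 for Hes6, -0.45 for Hey1 and -0.62 for Nrarp (adjusted p 0.0658, 0.103, 0.0523 and 0.0584). Of the members whose windows held 2 RBPJ cores, Hes5 was called lower relative to the library and Hey2 was not called.

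**Figure D3:**
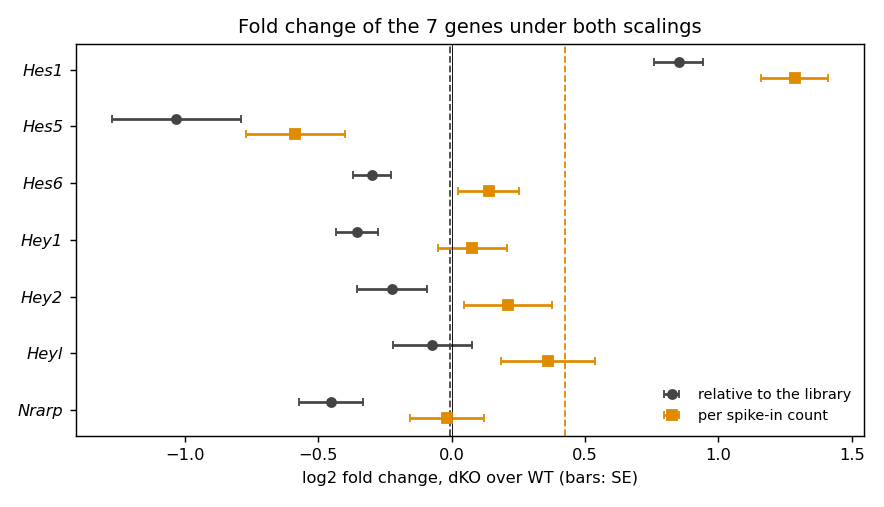
Log2 fold change of each gene, dKO over WT, relative to the library (circles) and per spike-in count (squares), with SE bars; dashed lines are the medians over all 17182 tested genes on each scale, -0.01 and 0.43. Hes1 lies right of both medians and Hes5 left of both, at 0.85 and -1.03 on the relative scale.

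**Figure D4:**
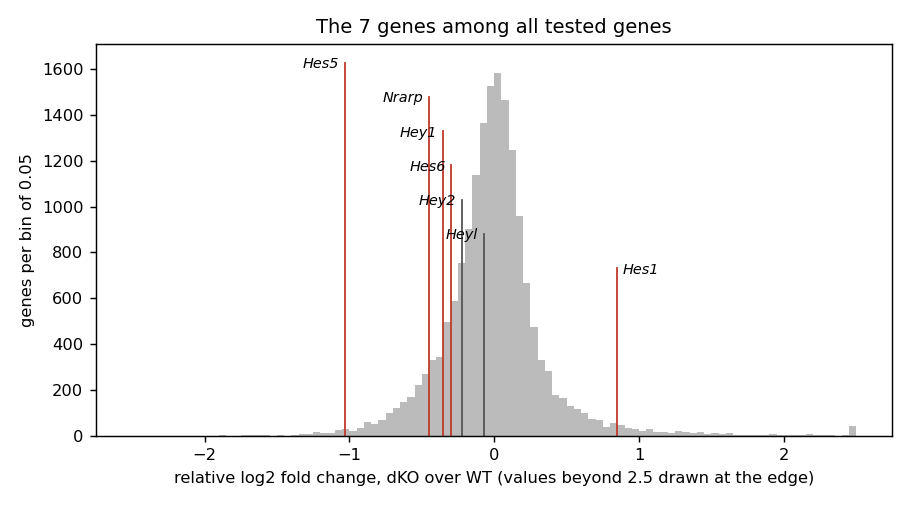
Relative log2 fold change, dKO over WT, of all 17182 tested genes (grey bars, bins of 0.05) with a line for each of the 7 genes, red where edgeR's adjusted p was under 0.05 and grey otherwise; line heights only separate the labels. Hes5 at -1.03 and Hes1 at 0.85 lie in opposite tails, and the other 5 lie between -0.45 and -0.07.

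Levels were compared between genes only as CPM per kb, with exon lengths from the GENCODE vM21 annotation. In dKO the order was Hes6 at 46.9 ± 5.81, Hes1 at 28.5 ± 3.64, Hes5 at 21.5 ± 9.33, Nrarp at 14.8 ± 2.60, Hey1 at 10.6 ± 1.11, Hey2 at 1.44 ± 0.16 and Heyl at 1.26 ± 0.18 CPM per kb (SD, n = 4). In WT it was Hes6 at 57.7 ± 2.21, Hes5 at 44.5 ± 7.98, Nrarp at 20.3 ± 2.66, Hes1 at 15.8 ± 1.61, Hey1 at 13.6 ± 0.98, Hey2 at 1.70 ± 0.27 and Heyl at 1.33 ± 0.25 CPM per kb (SD, n = 5). Hes1 was second in dKO, while in WT it stood below Hes6, Hes5 and Nrarp. Over the dKO libraries Hes1 and Hes5, Hes5 and Nrarp, and Hey2 and Heyl overlapped in their ranges; over the WT libraries Hes6 and Hes5, Nrarp and Hes1, Hes1 and Hey1, and Hey2 and Heyl did. The sum of Hes1 and Hes5 was 43.8 to 59.4 CPM per kb in dKO and 52.2 to 75.9 CPM per kb in WT, ranges that overlapped.

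Likeness to other genes was measured as the root mean square difference between log2 CPM profiles over the 9 libraries, each centred on its own mean, among 10776 genes of at least 5 CPM. The 5 genes nearest to Hes1 were Fam114a1, Phf19, the mitochondrial folate enzyme gene Mthfd2, the apical polarity gene Mpp5 and Raver2, at 0.07 to 0.08. Their relative log2 fold changes were 0.72 to 0.97. Those nearest to Hes5 were Fam69c, Nptx2, the interneuron factor Lhx6, the homeobox gene Prox1 and the channel gene Ano1, at 0.19 to 0.26. Lhx6 had 37.0, 42.4, 41.8 and 17.6 CPM in dKO 1 to 4, against 60.4 to 68.2 CPM in WT, so dKO 4 was low in it as in Hes5. Among the members themselves Hes6 and Hey1 were the closest pair at 0.08, and Hes1 and Hes5 the farthest apart at 1.09. All profiles share the same libraries and include the difference between the genotypes.

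Upstream of the effectors, the receptors and ligands gave 2 relative calls, where 25.7% of all 17182 tested genes were called (2355 higher, 2067 lower). Of 12 tested, 2 were called lower in edgeR, Dner at -0.35 (SE 0.07) and Dlk2 at -0.67 (SE 0.16), both non-canonical ligands; 4 were lower by DESeq2, 3 by voom, 4 at an unadjusted p under 0.05 and 4 without dKO 2, while 1 was with the share of reads in no gene as a covariate. The canonical ligand genes Dll3 at -0.39 (SE 0.14, edgeR adjusted p = 0.0561), below WT in every dKO library, and Dll1 at -0.24 (SE 0.09, edgeR adjusted p = 0.0645), whose groups overlapped, did not pass. In the other direction 0 were called higher, with 0 reaching an unadjusted p under 0.05 and none by DESeq2 or voom. The fit with the share of reads in no gene as a covariate called 1 higher. The receptors Notch1, Notch2, Notch3 and Notch4 had relative log2 fold changes of -0.02, 0.20, 0.00 and -0.03 that did not pass. The median of this list was -0.07, against -0.01 over all tested genes. Per spike-in count 6 of the 12 were called higher, the 4 receptors, Jag1 and Dlk1, a share no larger than the 61.1% of all tested genes. None of the 12 fell there in edgeR: 0 had an unadjusted p under 0.05 in that direction, and neither DESeq2 nor voom called any.

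In the machinery that processes receptors and carries the signal, 30 genes gave 2 relative calls higher and 4 lower, with a median of -0.05. Over all genes 25.7% were called, so these 6 calls are no more than the share of all genes. The Fringe glycosyltransferases, which tune how receptors answer to ligands, went both ways: Lfng was higher at 0.33 (SE 0.07), while Mfng at -0.52 (SE 0.10) and Rfng at -0.21 (SE 0.06) were lower. The receptor protease gene Adam17 was higher at 0.20 (SE 0.04) and the coactivator gene Ep300 lower at -0.22 (SE 0.04). Of 6 Groucho family genes, through which Hes and Hey proteins repress, 3 fell, with Tle3 at -0.31 (SE 0.06) and Aes at -0.17 (SE 0.03), and 0 rose (0 by unadjusted p under 0.05, none by DESeq2 or voom).

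Hes2, Hes3 and Hes7 were close to absent, with 0 to 3 counts in any library, and were not tested. In the same bHLH-Orange class, Bhlhe41 rose by 0.73 on the relative log2 scale (SE 0.21), at 2.61 ± 0.67 CPM in dKO (SD, n = 4) and 1.61 ± 0.36 CPM in WT (SD, n = 5). Its call was lost without any 1 of dKO 1, dKO 4, WT 2, WT 3, WT 4 or WT 5 (0 of 3 genes higher), and both Bhlhe41 and Helt lost theirs without WT 2, 3 and 4. Helt, a factor of GABAergic fate in the midbrain, was lower at -1.30 (SE 0.27), with 4 to 22 counts per dKO library and 11 to 63 per WT library.

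The proneural list holds genes that Hes proteins repress and genes that follow them in neurogenesis. Of 19 tested, relative to the library, 10 fell and 0 rose in edgeR (0 by unadjusted p under 0.05, none by DESeq2 or voom), with a median of -0.32. On the same scale edgeR called 2067 of all 17182 tested genes lower and 2355 higher. Neurog2, a proneural factor of dorsal progenitors, had 83.5 ± 10.7 CPM in dKO (SD, n = 4) and 102 ± 11.9 CPM in WT (SD, n = 5). Its log2 fold change was -0.29 (SE 0.10, edgeR adjusted p = 0.0480), and that of the intermediate progenitor factor Eomes was -0.40 (SE 0.10). Both genes overlapped between the groups. Btg2, Gadd45g, Rcor2, Nhlh1, Myt1, Elavl4 and Dcx were also called lower, with log2 fold changes between -0.30 and -0.48. Per spike-in count 2 of the 19 rose, Insm1 and Nhlh2, and 0 fell in edgeR, with 0 falls at an unadjusted p under 0.05 and none by DESeq2 or voom; 1 fell without dKO 2, 2 without dKO 4 and 1 without WT 1. Their per-spike-in median was 0.11, against 0.43 over all genes, of which 61.1% were called higher and 0.698% lower. Without WT 2, 3 and 4, Btg2, Rcor2 and Dcx still passed on the relative scale. Eomes at -0.17 and Neurog2 at -0.12 did not pass in that fit.

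Partners of bHLH factors and radial glia genes went both ways. Id4, which blocks bHLH activators, was higher at 0.52 (SE 0.07) and the E protein gene Tcf4 lower at -0.51 (SE 0.11), the only called members of 7. Among 19 radial glia genes, relative calls were 7 higher and 5 lower, with a median of 0.07. Of all 17182 tested genes 25.7% were called on that scale, 2355 higher and 2067 lower. Vim rose by 1.25 (SE 0.11), Ddah1 by 0.86 (SE 0.09), Nes by 0.59 (SE 0.06) and the cadherin gene Cdh2 by 0.32 (SE 0.05), while Aldoc was lower at -1.22 (SE 0.20), Ptprz1 at -0.53 (SE 0.10), Hopx at -0.53 (SE 0.12), Fabp7 at -0.23 (SE 0.05) and Glul at -0.17 (SE 0.05). Pax6 and Sox2 had values of -0.05 and 0.07 that did not pass. Without WT 2, 3 and 4, edgeR called 4 radial glia genes higher and 1 lower (Aldoc, -0.79), and Id4 but not Tcf4. That fit called 0 of the receptors and ligands, where 1 was higher and 4 were lower at an unadjusted p under 0.05. It called 0 of the machinery genes, with 2 higher and 2 lower unadjusted, and 0 of the Groucho genes, with 0 higher and 4 lower unadjusted.

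**Figure D5:**
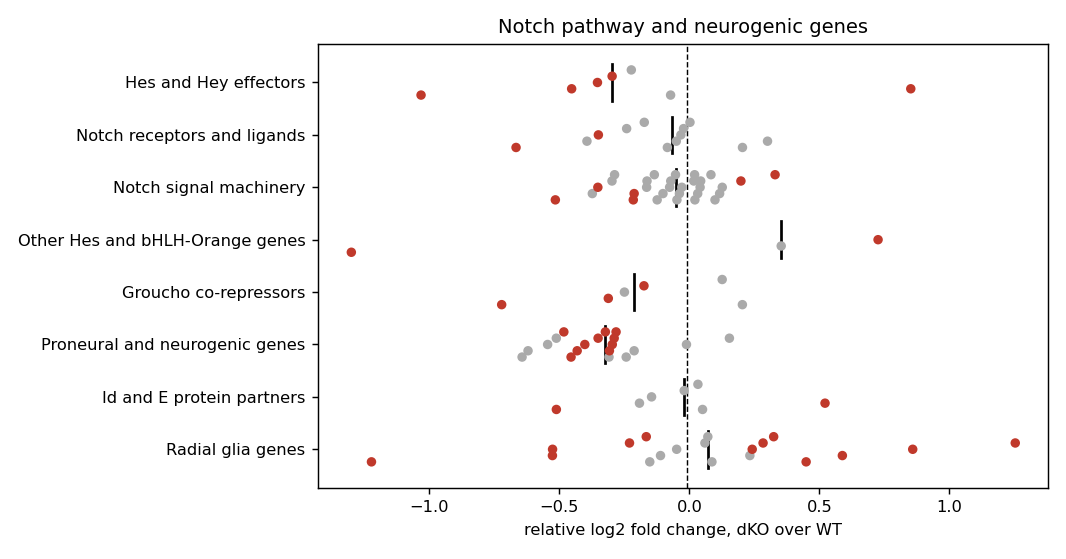
Relative log2 fold change, dKO over WT, of the 7 effectors (top) and of 7 lists of Notch pathway and neurogenic genes; each point is a gene, red where edgeR's adjusted p was under 0.05, black bars are list medians and the dashed line is the median over all tested genes. The proneural list has a median of -0.32 and the receptors and ligands have a median of -0.07.

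Of the markers of telencephalic progenitors, Emx2 stood at 27.5 to 37.3 CPM in dKO and 30.6 to 38.5 CPM in WT, and Gsx2 at 5.25 to 7.15 CPM in dKO and 5.57 to 7.71 CPM in WT, so both were detected in every library. The 8 markers of diencephalon and eye were also present, summing to 58.2 to 100.8 CPM in dKO and 71.9 to 105.5 CPM in WT. Lhx9 made up most of this at 35.95 to 57.94 CPM in dKO and 44.3 to 62.2 CPM in WT, while Rax and Foxb1 were below 1 CPM in every library. Of the 6 tested, 0 were called (edgeR; 0 at an unadjusted p under 0.05; none by DESeq2 or voom). Hey1, Hey2, Heyl and Nrarp are also expressed in vessels. The 12 endothelial markers summed to 267 to 350 CPM in dKO and 274 to 353 CPM in WT, with 1 called, Flt1, higher. The 13 pericyte and meningeal markers summed to 851 to 1169 CPM in dKO and 926 to 1145 CPM in WT, and 0 were called (edgeR; 2 at an unadjusted p under 0.05; 0 in DESeq2 and voom). The 13 hem and choroid plexus markers summed to 303 to 431 CPM in dKO and 255 to 593 CPM in WT, with 0 called (edgeR; 0 at an unadjusted p under 0.05; 0 in DESeq2 and voom). Red cell markers summed to 2191 to 3688 CPM in dKO and 2919 to 6955 CPM in WT, and WT 1, which had the most Hes5, was the highest. Of the 9, 3 were called lower, Hba-a1, Hba-a2 and Hbb-b1, where 2067 of all 17182 tested genes were called lower. Hbb-bh1 and Hba-x, not called, varied widely within each genotype. Hbb-bh1 ran from 27.9 to 153 CPM in dKO and from 29.9 to 270 CPM in WT. Hba-x ran from 147 to 437 CPM in dKO and from 156 to 713 CPM in WT. The 9 microglia markers summed to 88.8 to 105 CPM in dKO and 74.9 to 88.8 CPM in WT, with 1 called higher and 1 lower. The 9 surface ectoderm markers summed to 10.6 to 31.6 CPM in dKO and 10.4 to 24.6 CPM in WT, with dKO 4 the highest and Grhl3 called higher. All of these lists had every marker detected in at least 1 library, and their part in the results was not tested.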

How the data were processed

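Total RNA of counted cells from 4 dKO and 5 WT telencephalons was made into libraries from 350 ng with a stranded total RNA kit, with ERCC spike-ins added per cell number, per the labels' protocols. The deposited files, 1 for each library, held raw counts for gene symbols and 92 spike-ins; STAR, HTSeq and mm9 are named in the submitters' processing notes, and the sources used here give neither their versions nor the annotation or strand setting. Rows of the counter for reads in no gene (32.0% to 41.3% of reads), aligned to several places or not aligned stayed out of library sizes and tests. The Wilson interval (95%) of these shares was at most 0.0164 percentage points either side and covers counting error only.

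From the counts, 17182 genes passed edgeR's filterByExpr and were tested in R 4.3.3 with edgeR 4.0.16 (quasi-likelihood test; p adjusted by Benjamini-Hochberg over all of them, threshold 0.05), once with TMM scaling and once with the spike-in total as library size. SE is the log2 fold change divided by the root of F. The p-values per spike-in count share the same 9 spike-in totals. DESeq2 1.42.0, limma 3.58.1 voom, other filters and scalings, a tested change of 1.5-fold, the share of reads in no gene as a covariate, a replicate block and libraries left out were alternatives. The fits were tested on simulated data. Same-numbered dKO and WT libraries deviated from their group means with correlations of -0.21, -0.15, -0.50 and 0.12, so the numbers were not taken as pairs. Differently numbered libraries shared deviations: dKO 1 and dKO 4 with WT 2 and WT 3 at 0.29 to 0.42. Likewise dKO 2 and dKO 3 correlated with WT 1 and WT 5 at 0.23 to 0.36. The fit without WT 2, 3 and 4 keeps only WT 1 and WT 5, on the side of dKO 2 and dKO 3. What these libraries share was not tested.

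Members and lists were chosen with earlier results of these data known. By rule the text names all members, the receptor, ligand and proneural genes that passed the relative fit, the 4 genes with the smallest adjusted p of each other list (2 in lists with under 10 tested) and the 5 genes nearest to Hes1 and to Hes5; Notch1 to Notch4, Rfng, Insm1, Nhlh2, Jag1, Dlk1, Dll1, Dll3, the radial glia genes called lower, Pax6, Sox2 and the markers were named after their values were seen. A few genes that the rule or the lists hold are not reported here by name. Without a known strand setting, reads of Hes5 and Nrarp cannot be told apart from those of antisense genes that overlap their exons, Gm20421 (34 counts over all libraries) and Gm38287 (not among the counted genes). Coordinates and promoter sequences are from RefSeq (GRCm38.p6), another build than the counts.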

Additional observations from a re-analysis of the deposited data

How the results depend on the processing

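With 18 alternatives on each scale, Hes1 kept its direction throughout (0.74 to 0.92 relative to the library, 1.18 to 1.35 per spike-in count) and lost its call once, when a relative change of at least 1.5-fold was tested (0.85, adjusted p = 0.119). That test also left Hes5 without a call on the relative scale (-1.03, adjusted p = 0.534) and per spike-in count (-0.59, adjusted p = 1.00), so it called 0 members higher and 0 lower relative to the library and 0 lower per spike-in count. Without WT replicates 2, 3 and 4, Hes5 was at -1.26 and 0 members were called lower relative to the library, against 4 with all libraries; the fit has fewer samples. With DESeq2, Hes5 per spike-in count was at -0.59 and 0 members were called lower. Leaving out 1 library at a time gave -1.31 to -0.84 for Hes5 relative to the library and -0.93 to -0.40 per spike-in count, all with calls, 3 to 4 members lower relative to the library, and 1 to 2 members higher per spike-in count, the second being Heyl without dKO 1 (0.45) or without WT 5 (0.50).

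Values near 0 changed sign: with 1 library left out, Heyl relative to the library ran from -0.16 to 0.032 (above 0 without WT 5), Hey1 per spike-in count from -0.0034 to 0.14 (below 0 without dKO 2) and Nrarp per spike-in count from -0.17 to 0.058 (above 0 without dKO 1, dKO 4, WT 1 or WT 5). Hey1 per spike-in count was -0.022 without WT 2, 3 and 4. The replicate block, for numbers that the deviations did not show to be pairs, left out WT 5 and gave 3 members lower relative to the library (Nrarp lost, -0.45, adjusted p = 0.0523) and 2 higher per spike-in count, and 1 proneural gene lower per spike-in count, with Heyl at 0.021 relative to the library and Nrarp at 0.015 per spike-in count.

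Over the 7 lists together, relative calls were 11 higher and 26 lower, and calls per spike-in count 49 higher and 2 lower. A tested change of 1.5-fold left 1 rise and 0 falls relative to the library, and 4 rises and 0 falls per spike-in count; leaving out WT 2, 3 and 4 left 5 rises and 4 falls relative to the library; the share of reads in no gene as a covariate left 16 falls; a mean count of at least 50 left 1 fall per spike-in count; and single libraries left out gave 1 to 4 falls per spike-in count. Over all genes, relative calls numbered 2355 higher and 2067 lower, against (higher, lower) 432 and 163 without WT 2, 3 and 4, 994 and 734 with the covariate and 182 and 9 with the 1.5-fold test. Per spike-in count they were 10495 and 120, against 8439 and 43 without WT 2, 3 and 4, 9159 and 39 with the covariate, 10434 and 187 without a filter, 10371 and 79 with DESeq2 and 701 and 4 with the 1.5-fold test, and 67 to 203 lower with 1 library left out. The log2 difference in gene counts per spike-in count was 0.45 with all libraries and 0.45 without WT 2, 3 and 4, where the exact permutation p of 0.0667 is the smallest possible. The log2 Hes1 to Hes5 ratio differed by 1.66 to 2.27 with 1 library left out. Hey2 and Heyl had the fewest counts of the members, at most 334 in a library; the part of depth in their results was not tested.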
